A study of Mus musculus with 6 samples.

Results

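RN18S-RS5, GM26917, AY036118, MIR6236, MIR6240 and LARS2 are 6 of the 48321 gene rows of an expression table from mouse pancreatic islets, named here in capitals as the table prints them. They were chosen by row name, as rows that hold or resemble ribosomal RNA, and because their levels in earlier results on these libraries moved with the library. Their differences between the diets are therefore given as a description, with no test. All 6 names were found, and all 6 passed the filter on low values, a mean of at least 0.5 CPM (reads scaled to library size).

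The islets came from C57BL6 mice, and RNA was extracted with Trizol and sequenced. The samples numbered 3 on normal chow and 3 on a high-fat diet with 60 percent of calories from fat, begun at the age of 3 months and kept up for 4 months; the labels give neither age nor feeding time for the chow mice, and the sample titles mark the mice of both groups as WT and name no agent. The study is titled for AKT and mTOR in beta-cells under palmitic acid, and the groups address how islet transcripts differ with diet. Separate animals are not stated in the labels. The p-values below therefore reflect sample-to-sample spread that may be technical.

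Ribosomal RNA is the RNA core of the ribosome and makes up most of the RNA of a cell. RNA polymerase I transcribes the 18S and 28S RNAs in the nucleolus as parts of a single long precursor. In it an external spacer comes first and is followed by the 18S RNA, a small RNA and the 28S RNA, with internal spacers between them. The spacers are cut away and degraded. Mature ribosomal RNA has no poly(A) tail, so its share of a sequencing library depends on how the library was made, and genes or repeats with copies of it can take up its reads.

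The first 3 rows belong to 1 stretch of chromosome 17. In the GENCODE M21 annotation of build GRCm38, which may not be the annotation the authors used, an 18S gene of 1849 bases lies at the centre of it. The name RN18S-RS5 is not in that annotation, but RefSeq places RN18S-RS5, also 1849 bases long, within 1 base of the same position. GM26917, a long non-coding RNA gene of 3329 bases on the plus strand, ends 11 bases before it. The sequences below, 5′ to 3′ on the plus strand in GRCm38, show that junction and the far end of the 18S gene. GM26917 stops in a run rich in C and T, and the 18S sequence begins after the gap. The capitals mark the last bases of 18S.
GM26917, last 60 bases (chr17:39846282-39846341, plus strand): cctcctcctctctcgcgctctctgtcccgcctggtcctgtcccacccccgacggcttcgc
18S, first 60 bases (chr17:39846353-39846412, plus strand): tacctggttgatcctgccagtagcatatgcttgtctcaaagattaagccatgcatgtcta
18S, last 60 bases (chr17:39848142-39848201, plus strand): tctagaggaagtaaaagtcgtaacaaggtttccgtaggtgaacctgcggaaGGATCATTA

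The 18S gene is annotated on the minus strand, although its plus strand is the one that reads from the start to the end of 18S. GM26917 therefore lies on the strand of the 18S RNA and directly before its start. Its longest transcript had a GC content of 69.1%, a value that 0.278% of the genes in the annotation reach or exceed. GM26917 shared no 31-base word with any other gene in GENCODE M21.

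AY036118 lies inside 18S and is read from the other strand. Its 923 bases in GENCODE M21, on the minus strand, fall wholly within the 18S gene and within GM42418, a plus-strand gene of 1831 bases that shares 1244 bases with 18S. In RefSeq the same name spans 50274 bases from start to end, and that span shares 91 bases with RN18S-RS5. What a row named AY036118 counts thus depends on the annotation, and the labels name none. Without strand, reads from the bases that RN18S-RS5, AY036118 and GM42418 share cannot be told apart. The sequences below show 1 stretch of 60 bases on both strands, first as AY036118 and then as GM42418, 5′ to 3′ each; the letters are reverse complements.
AY036118 (chr17:39847976-39848035, minus strand): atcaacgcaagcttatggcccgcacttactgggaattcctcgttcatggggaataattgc
GM42418 (chr17:39847976-39848035, plus strand): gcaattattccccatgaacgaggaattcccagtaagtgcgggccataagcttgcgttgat

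**Figure D1:**
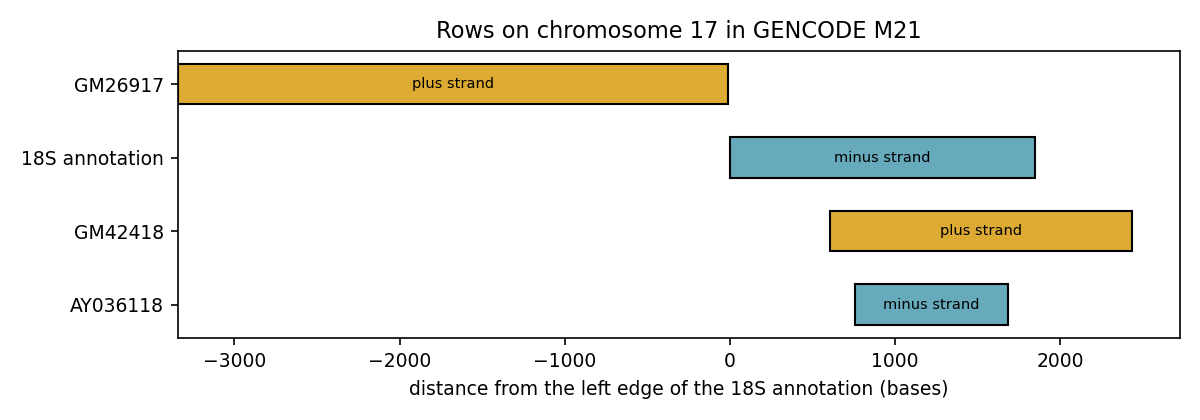
Position of GM26917, the 18S annotation, GM42418 and AY036118 on chromosome 17 in GENCODE M21, as distance in bases from the left edge of the 18S annotation (x axis), 1 bar per gene with its strand. GM26917 ends 11 bases before 18S, and AY036118 lies within both 18S and GM42418 on the opposite strand of GM42418.

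The other 3 rows lie elsewhere. MIR6236 and MIR6240 are annotated microRNA genes, on chromosomes 9 and 5, with hairpins of 123 and 117 bases in GENCODE M21. A microRNA is a short RNA that pairs with target messenger RNAs through its seed, bases 2 to 8. The mature sequences from RefSeq (GRCm38.p6) are printed with the seed in capitals, since both are short and rich in G and C: 78.9% of the bases of MIR6236 and 69.2% of those of MIR6240. The seed of MIR6236 occurred in no other of the 1738 mature microRNAs of the table and that of MIR6240 in 1 other, and the pair does not share a seed.
MIR6236 (chr9:110281353-110281371, plus strand): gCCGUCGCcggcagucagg
MIR6240 (chr5:114851973-114851998, plus strand): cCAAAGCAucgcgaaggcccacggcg

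The hairpin of MIR6240 below, with the mature part in capitals, has a GC content of 47%, so the mature part is richer in G and C than the hairpin as a whole.
MIR6240 hairpin (chr5:114851948-114852064, plus strand): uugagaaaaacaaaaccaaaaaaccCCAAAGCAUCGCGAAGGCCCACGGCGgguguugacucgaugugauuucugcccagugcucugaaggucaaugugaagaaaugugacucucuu

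LARS2, on the plus strand of chromosome 9, encodes the mitochondrial leucyl-tRNA synthetase, which loads leucine onto the mitochondrial tRNA. Its coding transcript is 3894 bases long, with the last coding base at position 2908. Over its 9 annotated transcripts LARS2 shared a 31-base word with 58 other genes, with both strands compared. The coding transcript, compared in the same direction only, shared such words with 2, AA474408 (positions 3172 to 3313) and GM15564 (positions 3278 to 3329). The counts of 58 and 2 were thus not made alike. Both ranges run from the first to the last shared base and lie in the 3′ untranslated region. The 26 words shared with AA474408 do not fill its range, so that range is not an unbroken match. Common to all 3 genes were 36 bases.

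MIR6236, MIR6240 and LARS2 shared no 31-base word with 18S or with each other, and none at 16 bases either. Their likeness to ribosomal RNA could be read only against 18S, since a 28S sequence was not used here; likeness to 28S was not tested. The name of the group thus rests on position and sequence for the chromosome 17 rows and on the choice of names for the other 3.

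The chow replicate 2 column equalled the mean of chow replicates 1 and 3 in 48321 of 48321 rows. It was not counted as a library, which leaves 2 independent chow libraries and 3 high-fat ones. The implied depth ran from 18.8 to 35.1 M reads per library, and 3 reads were worth 0.0856 to 0.16 CPM. The CPM of all rows did not add to the same total. It summed to 841705 and 674482 in the chow pair and to 963615, 832416 and 879301 across the high-fat trio. Shares of the summed CPM are taken of these sums. The 5 structured small RNAs RN7SK, RPPH1, RMRP, RN7S1 and RN7S2, which have no poly(A) tail, took up 0.00108% and 0.00237% of the summed CPM in the chow libraries and 2.36% to 3.25% in the high-fat trio. The sample titles also change their prefix with the diet, so library type and diet cannot be told apart for any row below. Of the acinar marker list, which names the enzyme-secreting cells around the islets, 32 of 33 genes were in the table and none was at 0 in every library; their share was 33.4% and 12.6% in chow and 13%, 1.75% and 5.22% in the high-fat trio. INS1 and INS2 of the islet beta cell took up 5.5% to 9.62% in every library. In bulk RNA, a change in the number of cells of a type and a change in RNA per cell cannot be told apart.

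The levels moved in opposite directions between the diets. GM26917 was far higher in the high-fat trio, and the other 5 rows were higher in chow, with no overlap between the groups for any of the 6. Of the 16939 rows tested, 55.4% had groups that did not overlap, and nothing is read from the count of members since they were chosen on these levels. By limma's moderated test with Benjamini-Hochberg adjustment, 23.7% of all tested rows differed between the diets, 14.9% higher and 8.78% lower in the high-fat trio.

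RN18S-RS5, the 18S row, was at 16771 and 14475 CPM in the chow pair (replicates 1 and 3) and at 4286, 4206 and 4202 CPM in high-fat replicates 1, 2 and 3. Both chow libraries were high, and the high-fat libraries lay within 1.02-fold of each other. The mean was 15623 ± 1624 CPM (SD, n = 2) in chow and 4231 ± 47.3 CPM (SD, n = 3) in the high-fat trio, a difference of 3.69-fold and of -1.88 on the log2(CPM + 1) scale, high-fat minus chow. By CPM it was the row of rank 8 and 3 in the chow libraries and of rank 19 to 27 in the high-fat trio. Among the 16939 tested rows, 99 had a lower log2 difference.

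GM26917, the row before the start of 18S, went the other way. It was at 80.8 and 91.4 CPM in the chow pair and at 35343, 35469 and 40815 CPM across the high-fat trio. The mean was 86.1 ± 7.51 CPM (SD, n = 2) against 37209 ± 3123 CPM (SD, n = 3), which is 432-fold and 8.74 on the log2(CPM + 1) scale. It took up 3.67%, 4.26% and 4.64% of the summed CPM across the high-fat trio, where it was the row with the second highest level in each, and 0.0096% and 0.0136% in chow. In reads, the spacing of the low values put it at 1520 and 2257 in chow and at 837713, 1243207 and 959215 in the high-fat trio. Among the tested rows, 13 had a higher log2 difference.

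AY036118, which in GENCODE M21 lies inside 18S on the minus strand, was at 17.2 and 63.7 CPM in the chow pair. It was listed at 0 in all 3 high-fat libraries. The chow libraries themselves differed 3.7-fold, with a mean of 40.4 ± 32.9 CPM (SD, n = 2). Whether a 0 here is a row with no reads or a row that was not counted cannot be read from the table, so no limit is given for it. GM42418 and RN18S-RS5 had 7585 to 22939 and 98754 to 147431 implied reads in the high-fat libraries. In GENCODE M21, GM42418 and the 18S gene cover the same bases as AY036118. In RefSeq AY036118 shares 91 bases with RN18S-RS5. Of the 7899 rows at 10 CPM or more in both chow libraries, 2 were at 0 in all high-fat libraries, AY036118 and GM37376. In the reverse direction it was 5 of 8067 rows. On the log2(CPM + 1) scale the difference was -5.10, the lowest of all tested rows, a value bounded by the added 1.

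MIR6236 was at 160 and 129 CPM in the chow pair and at 12, 7.07 and 1.79 CPM across the high-fat trio. All 3 high-fat libraries were low, but they spread 6.72-fold, with replicate 1 high and replicate 3 low. The mean was 145 ± 21.3 CPM (SD, n = 2) against 6.95 ± 5.11 CPM (SD, n = 3), which is 20.8-fold lower in the high-fat trio and -4.45 on the log2(CPM + 1) scale. The reads behind the lowest value numbered 42.

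MIR6240 was at 47.2 and 35.5 CPM in the chow pair and at 4.22, 2.28 and 0 CPM across the high-fat trio. It followed the same order as MIR6236 and was listed at 0 in high-fat replicate 3. The means were 41.3 ± 8.22 CPM (SD, n = 2) and 2.17 ± 2.11 CPM (SD, n = 3), a difference of -4.02 on the log2(CPM + 1) scale. Implied reads were 887 and 877 in chow and 100, 80 and 0 in the high-fat trio.

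LARS2 was at 1533 and 1198 CPM in the chow pair and at 117, 68.9 and 13.4 CPM across the high-fat trio. Replicate 1 was again the highest of the high-fat libraries and replicate 3 the lowest, with 8.69-fold between them. The mean was 1365 ± 237 CPM (SD, n = 2) against 66.4 ± 51.7 CPM (SD, n = 3), which is 20.6-fold lower and -4.79 on the log2(CPM + 1) scale. By CPM it was the row of rank 44 and 45 in the chow libraries and of rank 757, 1697 and 7361 in the high-fat trio. The chow replicate 2 column printed the mean of the chow pair for LARS2, 1365 CPM, as for every row.

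**Figure D2:**
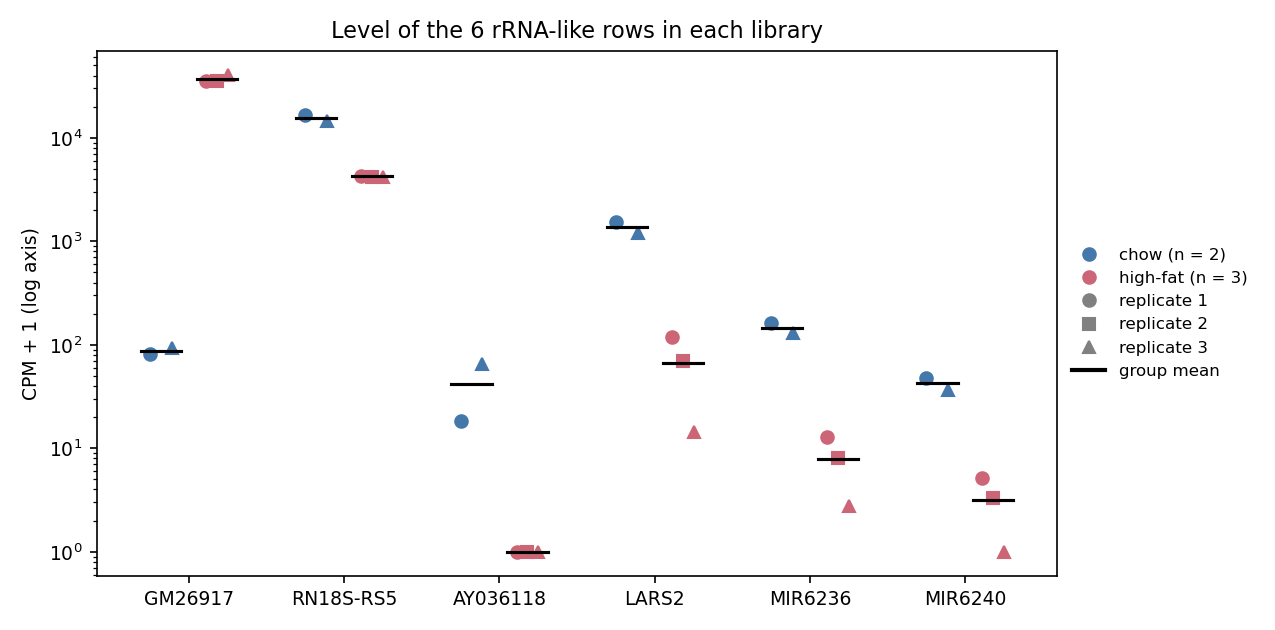
CPM + 1 of the 6 rows (x axis) on a log axis (y axis), 1 point per library with chow replicates 1 and 3 in blue and the 3 high-fat replicates in red; bars are group means. GM26917 was the row that was higher in the high-fat trio, from 35343 to 40815 CPM, and AY036118 was at 0 in all of them.

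Levels of different genes can be compared per length, here as CPM per kilobase of the annotated transcript. In chow, RN18S-RS5 stood first with 9070 and 7828 CPM per kilobase, followed by MIR6236 with 1298 and 1053 CPM per kilobase. Before division by length LARS2 was above MIR6236, at 1533 and 1198 against 160 and 129 CPM. The places of MIR6236 and MIR6240 thus rest on their short lengths of 123 and 117 bases. MIR6240 (403 and 304 CPM per kilobase) and LARS2 (394 and 308 CPM per kilobase) were neighbours whose values interleave over the libraries. GM26917 (24.3 and 27.5) and AY036118 (18.6 and 69) came last in CPM per kilobase and also overlapped. The AY036118 values use its GENCODE length of 923 bases. The 50274 bases in RefSeq are a span from start to end, and no RefSeq transcript length was used. The overlap with GM26917 is thus shown for the GENCODE length only. In the high-fat libraries GM26917 stood first with 10617 to 12260 CPM per kilobase and RN18S-RS5 second with 2273 to 2318 CPM per kilobase. MIR6236 (14.5 to 97.6), MIR6240 (0 to 36.1) and LARS2 (3.45 to 30) overlapped in CPM per kilobase there, and AY036118 was at 0. The order of GM26917 and RN18S-RS5 was thus reversed between the diets.

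The chromosome 17 stretch held more reads in the high-fat trio, in other rows. RN18S-RS5, GM26917, AY036118 and GM42418 summed to 17080 and 14913 CPM in the chow pair and to 40465, 40329 and 45339 CPM across the high-fat trio. In chow, RN18S-RS5 made up 98.2% and 97.1% of that sum and GM26917 0.473% and 0.613%. In the high-fat libraries GM26917 made up 87.3%, 87.9% and 90%, and RN18S-RS5 10.6%, 10.4% and 9.27%. GM42418, which is no member, was at 211 and 283 CPM in the chow pair and at 836, 654 and 323 CPM across the high-fat trio; it did not pass the test (log2 difference 1.20 ± 0.38 SE, limma adjusted p = 0.0596), and passed in 3 of 13 alternative fits with the same sign in all. Among the 3 fits that GM42418 passed was that with all 6 columns, which counts the mean of the chow pair as a library. The 6 members together took up 2.21% and 2.37% of the summed CPM in the chow pair and 4.13%, 4.78% and 5.12% in the high-fat trio. The share of the structured small RNAs given above was also higher in each high-fat library than in either chow library. Among the high-fat libraries their summed share was lowest in replicate 3 (2.36%), where the members' share was highest. The single small RNAs differed in this. RN7S1, RN7S2 and RMRP had their lowest high-fat share in replicate 3 and RPPH1 in replicate 2. RN7SK had its highest in replicate 3, with 0.376%, 0.383% and 0.447% in high-fat replicates 1, 2 and 3. The part of the small RNAs in the result was not tested.

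Within a library, the ratio of LARS2 to MIR6236 stayed nearly level while both rows moved about 20.6-fold and 20.8-fold between the diets. The ratio was 9.6 and 9.25 in chow and 9.73, 9.74 and 7.52 in the high-fat trio, 1.3-fold from lowest to highest. The exact 95% intervals from the implied reads, counting error only, were 9.24 to 9.97 and 8.92 to 9.6 in chow. In high-fat replicates 1, 2 and 3 they were 8.6 to 11, 8.54 to 11.1 and 5.44 to 10.6. The ratios are a description, since the rows were chosen as moving with the library, and the intervals hold no spread between libraries. They also take the implied reads as counts, which were not recovered, so the intervals are approximate.

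MIR6236 stood to MIR6240 as 3.39 and 3.64 to 1 in chow and as 2.85 and 3.1 to 1 in high-fat replicates 1 and 2. The exact 95% intervals were 3.14 to 3.65 and 3.38 to 3.93 in chow and 2.26 to 3.62 and 2.4 to 4.04 in high-fat replicates 1 and 2. The interval of high-fat replicate 1 held the ratio of chow replicate 1 and not that of chow replicate 3. LARS2 stood to MIR6240 as 32.5, 33.7, 27.7 and 30.2 to 1 in the same 4 libraries. In high-fat replicate 3 no ratio to MIR6240 could be formed, since MIR6240 was at 0 there, beside 42 implied reads of MIR6236 and 316 of LARS2. If that 0 is a row with no reads, the proportions to MIR6240 did not hold in that library. Whether the row was counted there cannot be read from the values. These 3 rows lie on chromosomes 9 and 5 and share no 16-base word. Over the 4 libraries where all 3 had reads, the ratios spanned 1.28-fold for the microRNA pair and 1.22-fold for LARS2 to MIR6240. Those spans leave out high-fat replicate 3 because of its 0.

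Other ratios moved much more. LARS2 stood to LARS, which encodes the cytosolic leucyl-tRNA synthetase, as 28.9 and 26 to 1 in chow and as 2.24, 1.34 and 0.285 to 1 in the high-fat trio, a span of 101-fold. LARS itself was at 53 and 46.1 CPM in the chow pair and 52.3, 51.5 and 47.2 CPM across the high-fat trio, with overlapping groups. The log2 difference of LARS was 0.02 ± 0.09 SE (limma adjusted p = 0.877), and its sign turned in 5 of 13 alternative fits. LARS passed the test in 1 of them, as lower, with the acinar and insulin rows removed from the library size (log2 difference -0.51, adjusted p = 0.00552). RN18S-RS5 stood to LARS2 as 10.9 and 12.1 to 1 in chow and as 36.7, 61.1 and 313 to 1 in the high-fat trio, so the 18S row did not share the spread of LARS2 among the high-fat libraries. GM26917 stood to RN18S-RS5 as 0.00482 and 0.00632 to 1 in chow and as 8.25, 8.43 and 9.71 to 1 in the high-fat trio, 2016-fold from lowest to highest.

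**Figure D3:**
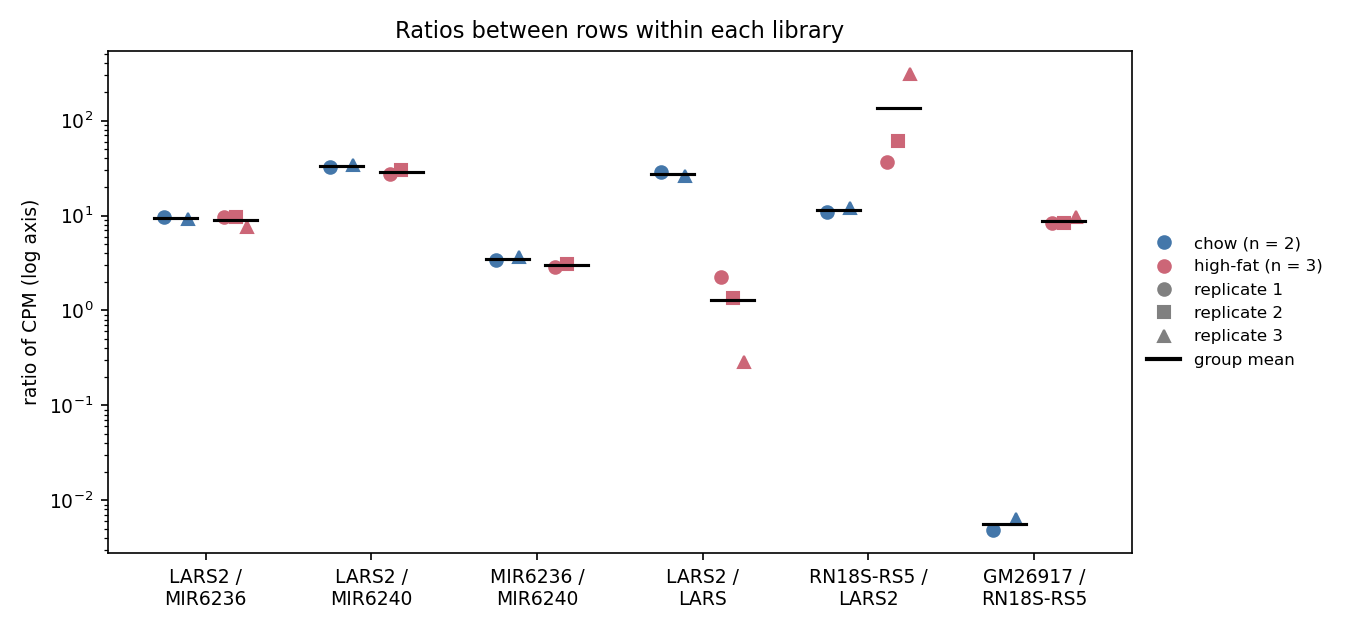
Ratio of CPM between pairs of rows within each library (y axis, log axis) for 6 pairs (x axis), chow in blue and high-fat in red with bars for group means; high-fat replicate 3 is absent from the ratios to MIR6240, which was at 0. The LARS2 to MIR6236 ratio runs from 7.52 to 9.74 over all 5 libraries, whereas GM26917 to RN18S-RS5 runs from 0.00482 to 9.71.

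AA474408 and GM15564 share sequence with the 3′ untranslated region of LARS2. AA474408, picked after its values were seen and given with no test, was at 101 and 74.4 CPM in the chow pair and 10.8, 7.19 and 3.98 CPM across the high-fat trio. GM15564 was at 26.7 and 26.8 CPM in the chow pair and at 1.02, 0.506 and 0.501 CPM across the high-fat trio, the lowest of them worth 12 reads (log2 difference -4.06 ± 0.18 SE, limma adjusted p = 1.71e-05). The ratios to LARS2 were not level: LARS2 stood to AA474408 as 15.2 and 16.1 to 1 in chow and 10.9, 9.58 and 3.37 to 1 in the high-fat trio, and to GM15564 as 57.5 and 44.7 to 1 and 114, 136 and 26.8 to 1. Reads of these rows and of LARS2 cannot be separated within the shared bases.

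Each member was set beside the 3 rows most like it, by the distance between log2(CPM + 1) values centred over the 5 libraries, among 15004 rows with a mean of at least 1 CPM. The distances are descriptions of 5 libraries. MIR6236 and MIR6240 were nearest to each other (distance 0.49), and the 2 rows nearest to LARS2 were MIR6236 (0.73) and MIR6240 (0.97). The third row by LARS2 was 9930004E17RIK (1.26), at 70.6 and 49.3 CPM in the chow pair and 11.2, 4.08 and 0.539 CPM across the high-fat trio, which was also the second row by MIR6240 (0.60) and the third by MIR6236. In all 4 rows high-fat replicate 1 was the highest of its group and high-fat replicate 3 the lowest.

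The chromosome 17 rows had other neighbours. GM26917 was nearest to GM12896 (distance 0.33), at 50.6 and 43.9 CPM in the chow pair and 21770, 20964 and 26178 CPM across the high-fat trio, then to CCDC154 (0.57) and RN7SK (0.66). RN7SK, an RNA that holds back transcription elongation, was at 6.27 and 13.3 CPM in the chow pair and at 3626, 3192 and 3935 CPM across the high-fat trio. RN18S-RS5 was nearest to HMGN5 (0.14), GM10925 (0.15) and GSTM2-PS1 (0.19). GM10925 was at 3458 and 3101 CPM in the chow pair and 969, 985 and 970 CPM across the high-fat trio, and HMGN5 at 17 and 14.4 CPM against 3.47, 3.08 and 3.65 CPM. AY036118 had no neighbour as close, the nearest being RPL10-PS1 (1.43), GM15564 (1.75) and GM37376 (1.84). None of the 6 members was a neighbour of RN18S-RS5, GM26917 or AY036118 in these lists.

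The other rRNA rows of the table gave little to set beside the members. Of 357 other rows annotated as rRNA or put on the list as rRNA-like, 252 were at 0 in all 5 libraries and 2 passed the filter on low values, GM42418 and GM15564, of which GM15564 was lower. All 37 mitochondrially encoded rows, the mitochondrial ribosomal RNAs MT-RNR1 and MT-RNR2 included, were at 0 in every library. Nothing is read from these values about the level of mitochondrial RNA, since the rows may not have been counted.

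Few of the genes that make ribosomal RNA passed the test. Of 16 tested genes of RNA polymerase I and its factors, 0 were higher and 1 was lower, with a median log2 difference of 0.01 beside 0.05 over all 16939 tested genes; 6.25% were called, against 23.7% of all genes. With the acinar and insulin rows removed from the library size, 12 of the 16 were lower, in a fit where the median over all genes moved to -0.40. The one called was TAF1D, a subunit of the factor that places RNA polymerase I on its promoter. It was at 4.43 and 3.87 CPM in the chow pair and 1.84, 2.1 and 2.85 CPM across the high-fat trio (log2 difference -0.67 ± 0.18 SE, limma adjusted p = 0.0373). TAF1D kept its sign in 13 of 13 alternative fits and passed the test in 7; it did not pass with an acinar covariate or no filter, nor without chow replicate 1, chow replicate 3, high-fat replicate 1 or high-fat replicate 2 (highest adjusted p = 0.183).

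Of 50 tested genes that process ribosomal RNA and assemble ribosomes, 2 were higher and 4 were lower (12% called, against 23.7% of all genes, median 0.01). With the acinar and insulin rows removed from the library size, 0 were higher and 38 lower (median -0.50). With all 6 columns, which count the mean of the chow pair as a library, 9 were higher and 9 lower. NCL, or nucleolin, an abundant nucleolar protein, was lower, at 216 and 206 CPM in the chow pair and 149, 141 and 142 CPM across the high-fat trio (log2 difference -0.55 ± 0.09 SE, limma adjusted p = 0.00648). NCL passed the test with the same sign in 13 of 13 alternative fits. NPM1, or nucleophosmin, was also lower, at 105 and 83.8 CPM against 60.6, 55.7 and 58.8 CPM (log2 difference -0.68 ± 0.11 SE, limma adjusted p = 0.00765), and passed in 12, the exception being no filter (adjusted p = 0.106).

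UTP3, a factor of the small-subunit precursor, was at 15.5 and 15.2 CPM in the chow pair and 11.4, 10.7 and 9.57 CPM across the high-fat trio (log2 difference -0.50, limma adjusted p = 0.0204). UTP3 passed in 8 of 13 alternative fits; it did not pass with an acinar covariate or no filter, nor without chow replicate 1, high-fat replicate 2 or high-fat replicate 3 (highest adjusted p = 0.107). NVL, a nuclear ATPase of large-subunit assembly, was at 18.6 and 21.8 CPM against 27.8, 26.6 and 28.9 CPM (log2 difference 0.44, limma adjusted p = 0.0214), but passed in only 5 of 13 alternative fits. With the acinar and insulin rows removed from the library size, the log2 difference of NVL turned to -0.08.

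The list of mitochondrial tRNA synthetases holds 19 genes other than LARS2, among them GATB, GATC and QRSL1, which are not synthetases. Of the 19, 1 was higher and 0 were lower (5.26% called, against 23.7% of all genes, median 0.13). With the acinar and insulin rows removed from the library size the direction turned, with 0 higher and 10 lower (median -0.34). That gene was EARS2, which charges the mitochondrial glutamate tRNA, at 7.82 and 9.44 CPM in the chow pair and 12.7, 13.4 and 13.4 CPM across the high-fat trio (log2 difference 0.56 ± 0.12 SE, limma adjusted p = 0.0171). EARS2 passed in 6 of 13 alternative fits; it did not pass with an acinar covariate or no filter, without chow replicate 1, high-fat replicate 2 or high-fat replicate 3, nor in either fit with genes taken out of the library size (log2 difference down to 0.07, highest adjusted p = 0.652). LARS2, with its -4.79, is not counted among the 19 and was not tested, since it was chosen on this contrast.

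**Figure D4:**
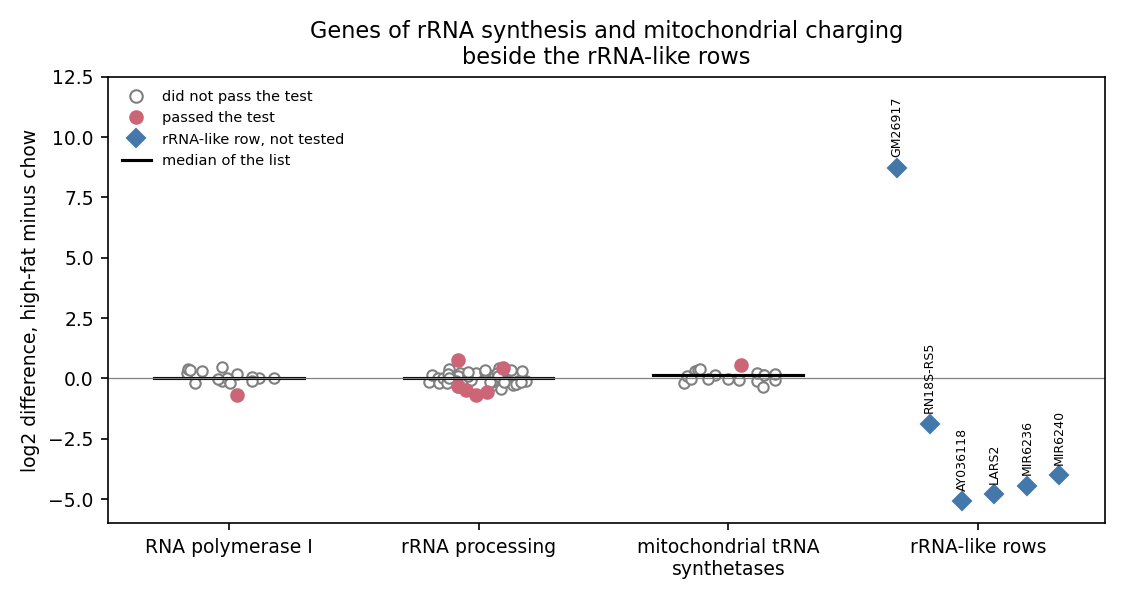
Log2 difference of each gene, high-fat minus chow (y axis), for the lists of RNA polymerase I genes, rRNA processing genes and mitochondrial tRNA synthetases, beside the 6 rRNA-like rows (x axis). The last of these lists also holds GATB, GATC and QRSL1, which are not synthetases. Filled circles passed limma's test, open circles did not, diamonds were not tested and bars are list medians. List medians lie between 0.01 and 0.13, whereas the rRNA-like rows run from -5.10 to 8.74.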

How the data were processed

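The deposited table holds 1 column per sample. The submitters' processing notes name Partek as the software. Which version, aligner, annotation, genome build, library preparation and strand setting were used is not given in the sources used here. No unit stands in the header. The lowest value was 1 in every column and low values less 1 lay on multiples of 1 step, so the deposited values were read as CPM with 1 added by the authors, and 1 was subtracted. The step gave the implied reads and depths. Whole reads within 0.1 made up 62.4% to 67.7% of the values up to 20 reads, so counts were not recovered and no count model was used for the test between the diets. The exact intervals of the ratios are binomial and treat the implied reads, rounded to whole reads, as counts.

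The members, lists and tests were chosen with earlier results of these data known. The test was limma (version 3.58.1, under R 4.3.3, variance prior with a trend), applied to log2(CPM + 1) of the 16939 rows with a mean of at least 0.5 CPM in 5 libraries (2 chow and 3 high-fat); this scale understates changes of low rows. The Benjamini-Hochberg adjustment ran over all tested rows, with a threshold of 0.05. The fit was tested on simulated data. Named genes were the 6 members, up to 4 genes with the smallest p of each list past the threshold, the 5 structured small RNAs, and the 3 rows nearest to each member. LARS and GM42418, which overlaps 18S, fall outside that rule, and AA474408 was added after its values were seen. The alternatives were median-ratio scaling, a library size that leaves out the acinar and insulin rows or the members and small RNAs, 0.1 added to the CPM, no filter or a mean of at least 1 CPM, an acinar covariate, all 6 columns, and leaving out each library. Names, lengths and sequences came from GENCODE M21 and RefSeq.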

Additional observations from a re-analysis of the deposited data

How the results depend on the processing

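The signs of the log2 differences of all 6 members held in each of 11 alternatives; the ranges were -2.42 to -1.77 for RN18S-RS5, 8.20 to 8.83 for GM26917, -8.38 to -4.19 for AY036118, -4.94 to -3.82 for MIR6236, -5.35 to -3.34 for MIR6240 and -5.42 to -3.90 for LARS2. The ends of the AY036118 range came from adding 0.1 to the CPM and from leaving out chow replicate 3. The count of 4011 genes past the threshold (2524 higher, 1487 lower) became 9459 (782 higher, 8677 lower) with the acinar and insulin rows removed from the library size, where the median over all genes moved from 0.05 to -0.40. It became 931 with no filter, 1634 with the acinar covariate, 7078 with all 6 columns, and between 1877 (without high-fat replicate 2) and 4393 (without chow replicate 3) with 1 library left out. Without chow replicate 1, high-fat replicate 1 or high-fat replicate 3 it was 2133, 2255 and 1976. Median-ratio scaling gave 1995 higher and 1943 lower, and a library size without members and small RNAs 1034 higher and 1660 lower. In the same order (acinar and insulin genes out, no filter, acinar covariate, all 6 columns), RNA polymerase I genes past the threshold numbered 12, 0, 0 and 4 beside 1, and 0 to 3 with 1 library left out. Genes of rRNA processing numbered 38, 1, 2 and 18 beside 6, 3 with members and small RNAs out of the library size, and 2 to 10 with 1 library left out. Mitochondrial synthetases numbered 10, 0, 0 and 5 beside 1, 2 with median-ratio scaling, 0 with members and small RNAs out of the library size, and 0 to 1 with 1 library left out. Other rRNA rows numbered 2 beside 1 with members and small RNAs out of the library size or with all 6 columns, and 1 to 2 with 1 library left out. With no filter more rows are tested, and with a library left out fewer samples are. With all 6 columns, the mean of the chow pair is counted as a further chow library. That fit understates the chow spread, and its counts are not those of independent libraries. The alternative fits counted above for single genes include it. The cause of the other shifts was not tested. With a chow library left out, the lone chow library is assumed to vary like the high-fat ones. No paired analysis was possible because the labels give the samples no shared replicate numbers. Depth limits MIR6236, MIR6240 and GM15564 in the high-fat libraries, where 0 to 285 reads stood behind a value. It also limits AA474408, with 94 to 255 implied reads there, and LARS2 in high-fat replicate 3, with 316. The ratios of LARS2 in that replicate rest on these reads.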
